A study of Mus musculus with 20 samples.

Results

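The glutathione peroxidase genes Gpx1, Gpx2, Gpx3, Gpx4, Gpx6, Gpx7 and Gpx8 and the selenoprotein P gene Selenop were followed in 20 bulk RNA sequencing libraries of mouse kidney. They were chosen by gene name and make up 8 of the 54532 genes in the count table. The libraries come from 10 kidney tumors and 10 normal kidney regions of C57BL/6 mice that were LSL-Cas9/+; Pax8 Cre/+, so that Cas9 and EGFP, inserted at ROSA26 behind a stop cassette, were made only after Cre had acted in cells with Pax8 promoter activity, which include renal tubule cells. Male and female mice were injected in the kidney, at 8 to 12 weeks of age, with an adeno-associated virus (AAV) that lacked Cre and carried sgRNAs against Vhl, Pbrm1, Keap1 and Tsc1, and each tumor came from a separate mouse. The normal kidney regions came from those same injected mice, so they carry the same inherited alleles. The methods do not say whether they came from the injected kidney, so how far they were exposed to the virus is not given. Neither the sample labels nor the methods say which tumor and which normal kidney share a mouse. Age and sex are not given per library.

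Glutathione peroxidases use glutathione to reduce hydrogen peroxide and organic hydroperoxides. Several of them hold selenocysteine in the active site, an amino acid that is encoded by UGA, a codon that otherwise stops translation, with the help of a structure further along the message. In the kidney, the proximal tubule is the main source of plasma glutathione peroxidase, the product of Gpx3, and takes up selenoprotein P from the filtrate through the receptor megalin. Selenoprotein P, made mostly in liver, carries selenium through plasma and holds many selenocysteines in a single chain. Keap1 holds NRF2 in check, a transcription factor that drives many antioxidant genes.

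The coding sequences show how the members differ in this chemistry. The windows below run 5′ to 3′ on the coding strand of GRCm38, 30 bases each for the peroxidases, and the capitals mark the active site codon. TGA is the annotated selenocysteine codon in Gpx1 to Gpx4. In Gpx6, Gpx7 and Gpx8 the codon at the same place is TGT or TGC, which encodes cysteine.
Gpx1 (chr9:108339451-108339453, codon 47): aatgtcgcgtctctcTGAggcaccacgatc
Gpx2 (chr12:76795256-76795258, codon 40): aatgtggcgtcactcTGAggaacaactacc
Gpx3 (chr11:54907256-54907258, codon 73): aacgtagccagctacTGAggtctgacagac
Gpx4 (chr10:80054737-80054739, codon 73): aacgtggcctcgcaaTGAggcaaaactgac
Gpx6 (chr13:21313777-21313779, codon 73): aacgtggcatccttcTGTggcctgacagct
Gpx7 (chr4:108403430-108403432, codon 56): aacgtagctagcgaaTGTggcttcacagac
Gpx8 (chr13:113045661-113045663, codon 79): aacgtggctagtgacTGCcgcttcacagac
The flanking letters follow the same pattern in all 7 genes, with aacgt or aatgt at the start of the window. In Gpx6, Gpx7 and Gpx8 the codon was located by searching for this pattern, as amino acids ending in cysteine. Their likeness to the pattern was therefore set by the search.

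Selenop was the member with the most selenocysteine codons, 10 among 380 codons, against 1 in each of the 4 peroxidases that have any. The first of them, codon 59, lies apart from the rest, and the last 7 crowd into the end of the coding sequence. Both stretches are shown with every selenocysteine codon in capitals, because they set Selenop apart from the enzymes.
Selenop, codon 59 (chr15:3274848-3274850): cttcttcaagccagcTGAtacttgtgtctt
Selenop, codons 318 to 377 (chr15:3279519-3279698): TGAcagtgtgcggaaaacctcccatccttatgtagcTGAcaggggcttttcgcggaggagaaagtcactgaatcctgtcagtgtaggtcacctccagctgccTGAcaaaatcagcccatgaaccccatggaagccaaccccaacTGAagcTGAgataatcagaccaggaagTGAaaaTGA
Each of these TGA codons has to be read as selenocysteine for the full chain to be made, which the RNA counts do not measure.

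Levels are given as CPM, the count of a gene scaled to a common library size by edgeR's TMM factors, which correct library totals for composition. The tissues were compared with the quasi-likelihood test of edgeR on 15354 genes, with p-values adjusted by the Benjamini-Hochberg method, and a gene is called at an adjusted p under 0.05. By this rule 47.5% of all genes tested were called, 23.6% as higher in tumors and 23.8% as lower. All tumors were above all normal kidneys in 5.87% of the genes and below all of them in 4.74%. The filter for low counts kept 7 of the 8 members, all but Gpx2, and Gpx6 passed it through the normal kidneys alone. Gpx6 is therefore described without a test. Of the remaining 6, Selenop and Gpx7 were higher in tumors, Gpx8 was lower, and Gpx1, Gpx3 and Gpx4 were not called. With so many genes called in this comparison, 3 of 6 is near the background.

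Library totals lay between 14737516 and 26679704 counts. Among the targeted genes, Keap1 ranged from 56.0 to 91.3 CPM in the tumors and from 36.6 to 50.6 CPM in normal kidneys, and it was higher in tumors. Vhl ranged from 12.3 to 28.6 CPM against 21.6 to 28.8 CPM, and Tsc1 from 25.7 to 52.0 CPM against 18.9 to 62.1 CPM, and both were lower in tumors. Pbrm1 lay at 36.2 to 74.9 CPM in the tumors and 20.0 to 93.0 CPM in normal kidneys and was not called. Counts of a whole gene do not show whether its alleles were edited. Normal kidney 9 stood apart, with a TMM factor of 0.749, while the remaining normal kidneys lay at 1.03 to 1.14. Its 4350 genes of 1 to 3 kb were 0.70 higher (median, log2) than in the other normal kidneys, and its 4314 genes of 6 kb or more were 0.88 lower. The members are short by the gene length supplied with the counts, at 1048 to 3222 bases. For Gpx1 and Gpx2 that length equals the whole genomic span, introns included, and for the others it does not. Levels of Gpx1 and Gpx2 per length can thus be too low beside the others. Tumor 7 had 8035 CPM over 7 fibroblast markers, against a median of 216 CPM over all tumors, and 1812 CPM over 10 proximal tubule markers, against a median of 11240 CPM. Normal kidney 7 was the lowest of the normal kidneys for those tubule markers, at 4611 CPM against a median of 15884 CPM. Results that rest on these libraries are given with and without them.

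Selenop rose most among the members that had counts in both tissues. Its lowest, median and highest levels were 4145, 11242 and 14917 CPM in the tumors and 735, 1352 and 2890 CPM in normal kidneys. Every tumor was above every normal kidney, and the lowest tumor, tumor 7, still lay above the highest normal kidney, normal kidney 9. The means were 11021 ± 3203 CPM in the tumors and 1634 ± 898 CPM in the normal kidneys (± SD, n = 10 libraries each), a 6.74-fold difference (log2 fold change 2.75, SE 0.31, adjusted p = 3.21e-07 by edgeR's quasi-likelihood test). By CPM per kb of gene length, Selenop moved from rank 42 in normal kidneys to rank 7 in tumors among 13695 protein-coding genes tested. In bulk tissue a change in the number of cells of a type and a change in RNA per cell cannot be told apart.

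Selenop also varied among the normal kidneys. Normal kidneys 2, 3, 4 and 5 lay between 735 and 837 CPM, and normal kidneys 7, 8 and 9 between 2717 and 2890 CPM. Without tumor 7, normal kidney 7 and normal kidney 9 the log2 fold change was 3.13 (SE 0.27). Leaving out each library in turn gave 2.67 to 2.88.

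**Figure D1:**
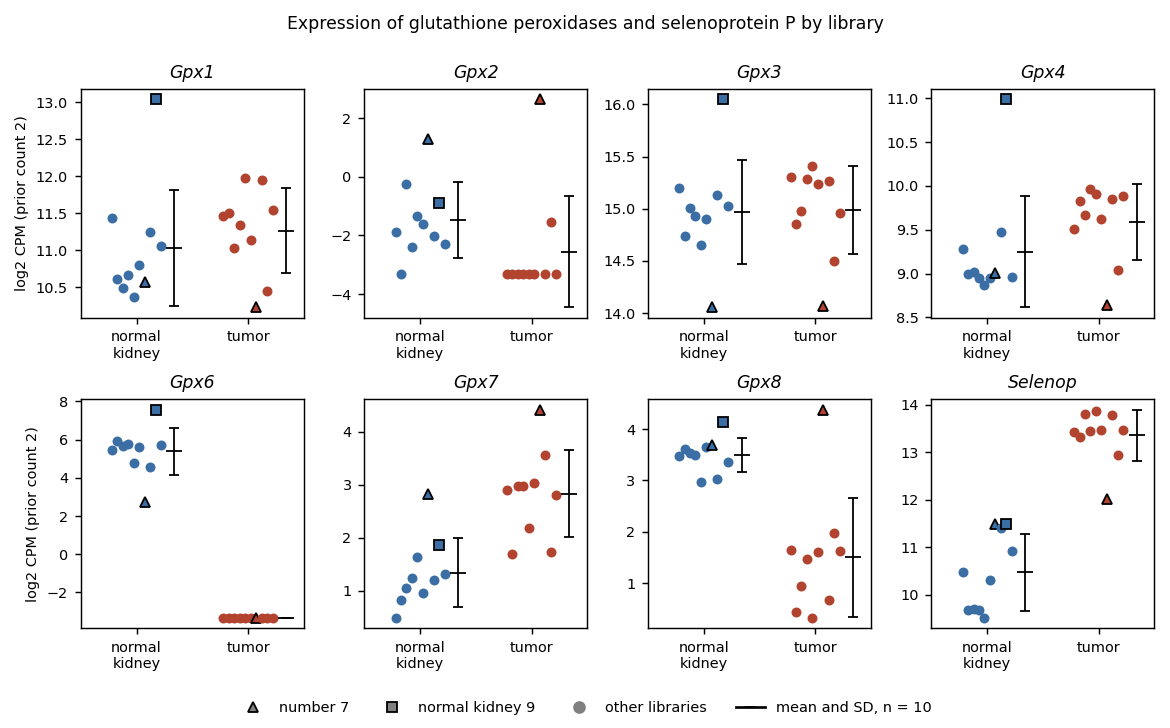
Expression of each of the 8 genes in each of 20 libraries, as log2 CPM with a prior count of 2, for 10 normal kidneys (blue) and 10 tumors (red). Bars are the mean and SD, triangles are the libraries of number 7 and the square is normal kidney 9. Selenop shows no overlap, all tumors sit at the floor for Gpx6, and for Gpx8 tumor 7 lies above all normal kidneys while the other tumors lie below them.

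Macrophages and hepatocytes are cells that express Selenop, so their markers were examined beside it. Of 10 macrophage markers 7 were higher in tumors and 0 lower, with summed levels of 346 to 1804 CPM in the tumors and 192 to 520 CPM in normal kidneys, and none was at 0 in a whole group. Their part in the Selenop result was not tested. Within the tumors Selenop was lower where the mean level of the macrophage list was higher. Pearson's r was -0.82 (permutation p = 0.0135, adjusted 0.04 over 13 relations) and Spearman's rho -0.36 (permutation p = 0.314, adjusted 0.501), and without tumors 7 and 9 r was 0.32 (permutation p = 0.435), so the relation rests on those libraries. Within the normal kidneys r was 0.77 (permutation p = 0.0151, adjusted 0.04) and rho 0.69 (permutation p = 0.0345, adjusted 0.224), and r was 0.68 (permutation p = 0.0536) without normal kidneys 2 and 4. Tumors 7 and 9, the lowest tumors for Selenop, were also the lowest for the mean level of the proximal tubule list, at 6.70 and 7.14 log2 CPM. The part of the tubule in the Selenop result was not tested. The 4 liver markers summed to 7.59 to 345 CPM in the tumors and 25.9 to 823 CPM in normal kidneys. Of the 3 that were tested, Alb, the albumin gene that defines the list, was lower in tumors, at 0.63 CPM against 11.1 CPM on average, and Apoa2 and Ttr were not called (log2 fold changes 0.03 and -0.97).

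Gpx3, which encodes the secreted plasma enzyme, was the most abundant member in all 20 libraries. It made up 1.75% to 5.05% of all counts of a library, was the single most abundant gene in all 10 tumors, and ranked between 1 and 3 in the normal kidneys. Its lowest, median and highest levels were 17209, 35457 and 43416 CPM in the tumors and 17022, 32027 and 67654 CPM in normal kidneys. The ranges overlap almost fully, with number 7 lowest in both tissues and normal kidney 9 highest. Gpx3 was not called (log2 fold change -0.01, SE 0.23, 95% interval -0.47 to 0.44, adjusted p = 0.967 by edgeR's quasi-likelihood test). The interval leaves room for a moderate change in either direction, and the sign turned under several settings, with values between -0.14 and 0.14. With the mean level of 9 proximal tubule markers Gpx3 gave r = 0.79 across tumors (permutation p = 0.0154, adjusted 0.04) but rho = 0.37 (permutation p = 0.293, adjusted 0.501), and r was -0.33 (permutation p = 0.455) without tumors 7 and 9, on which the relation thus rests. Across normal kidneys r was 0.505 (permutation p = 0.159, adjusted 0.207) and rho 0.44 (permutation p = 0.204, adjusted 0.501).

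Within the summed level of the 8 genes, Gpx3 nevertheless had a smaller share in tumors and Selenop a larger one. The level of Gpx3 itself was alike, at 18539 CPM per kb in tumors and 18722 CPM per kb in normal kidneys on average. Levels were divided by gene length and expressed as a share of the 8 genes' sum in each library, which does not depend on normalization between libraries. Gpx3 took up 75.2% ± 2.76 of the sum in the tumors and 87.6% ± 3.92 in the normal kidneys (± SD, n = 10 libraries each, two-sided permutation p = 3e-05, adjusted 8e-05 over 8 genes). Selenop took up 15.6% ± 2.22 in tumors and 2.91% ± 2.15 in normal kidneys (permutation p = 3e-05, adjusted 8e-05). The shares sum to 100% in every library, so these differences are not independent. Gpx1 and Gpx4 held shares of 7.27% and 1.89% in tumors and 7.41% and 1.79% in normal kidneys, differences within the spread (permutation p = 0.877 and 0.518). The share of Gpx2 averaged 0.00163% in tumors and 0.000931% in normal kidneys (permutation p = 0.997), and the difference turned to -0.00088 percentage points without tumor 7 (p = 0.026).

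**Figure D2:**
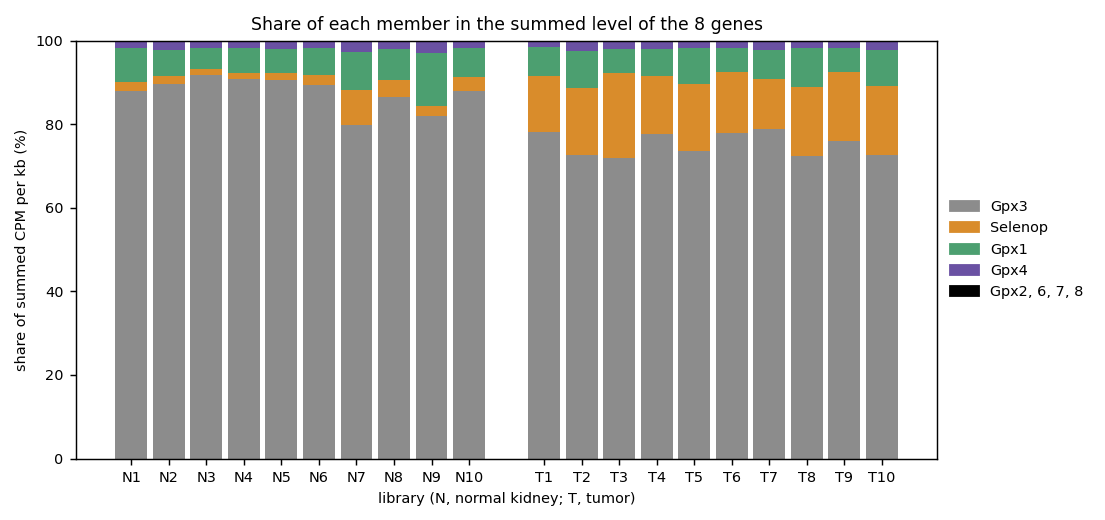
Share of each gene in the summed CPM per kb of the 8 genes, in percent, for normal kidneys N1 to N10 and tumors T1 to T10. Selenop takes up 12.1% to 20.1% in tumors and 1.49% to 8.55% in normal kidneys, and N7 has the highest share among the latter.

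The ratio of Selenop to Gpx3 per length, chosen after the levels had been seen, was 0.208 on average in tumors (range 0.154 to 0.280) and 0.0341 in normal kidneys (range 0.0162 to 0.107). All 10 tumors were above all normal kidneys, by 2.86 on the log2 scale on average. The pair was picked for its levels, so the difference is a description and no p-value is given. Tumor 7 was the lowest tumor and normal kidney 7 the highest normal kidney, and normal kidney 9, at 0.0272, was near the median of its group.

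Gpx1, the cytosolic enzyme that clears hydrogen peroxide, lay at 1197, 2708 and 4040 CPM in the tumors and at 1316, 1695 and 8394 CPM in normal kidneys (lowest, median and highest). Normal kidney 9 was far above all other libraries, while the remaining normal kidneys lay within the range of the tumors. Gpx1 was not called (log2 fold change 0.07, SE 0.32, 95% interval -0.56 to 0.71, adjusted p = 0.875 by edgeR's quasi-likelihood test). Without normal kidney 9 the log2 fold change was 0.50 (SE 0.21, adjusted p = 0.0576). Without tumor 7, normal kidney 7 and normal kidney 9 it was 0.54 (adjusted p = 0.0256), which is past the threshold. With the macrophage list Gpx1 gave r = -0.69 across tumors (permutation p = 0.0283, adjusted 0.0613) and 0.31 across normal kidneys (permutation p = 0.437, adjusted 0.516), with rho of -0.33 and 0.25 (permutation p = 0.347 and 0.493, adjusted 0.501 and 0.583).

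Gpx4 reduces hydroperoxides within membrane lipids and protects cells from ferroptosis, an iron-dependent form of cell death. It lay at 399, 861 and 996 CPM in the tumors and at 469, 512 and 2027 CPM in normal kidneys (lowest, median and highest). In 8 of the tumors Gpx4 was above 9 of the normal kidneys, tumors 7 and 9 were lower, and normal kidney 9 was higher than every other library. With all libraries Gpx4 was not called (log2 fold change 0.22, SE 0.26, 95% interval -0.29 to 0.72, adjusted p = 0.509 by edgeR's quasi-likelihood test). Without normal kidney 9 it was called as higher in tumors (log2 fold change 0.56, SE 0.15, adjusted p = 0.00342 by the same test). With no library left out, DESeq2 called it (0.52, adjusted p = 0.00145), and so did limma-voom with sample quality weights (0.67, adjusted p = 2.33e-06). The size factors of DESeq2 in edgeR's test did not (0.18, adjusted p = 0.59). DESeq2 at its defaults can replace outlying counts, and quality weights lower the weight of outlying libraries. The call thus depended on the test and on normal kidney 9, and these may not be separate, which was not examined.

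Part of the reads of Gpx4 could have been assigned to a copy. The processed pseudogene Gpx4-ps2 had 0.172 of the counts of Gpx4 in tumors and 0.165 in normal kidneys on average, without regard to length. This ratio of counts stayed between 0.153 and 0.177 in all 20 libraries. Per kb of gene length the means were 172 CPM for Gpx4-ps2 and 463 CPM for Gpx4 in tumors, and 144 and 398 CPM in normal kidneys. Gpx4-ps2 moved with Gpx4 across libraries more closely than any other gene did, with r = 0.99.

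**Figure D3:**
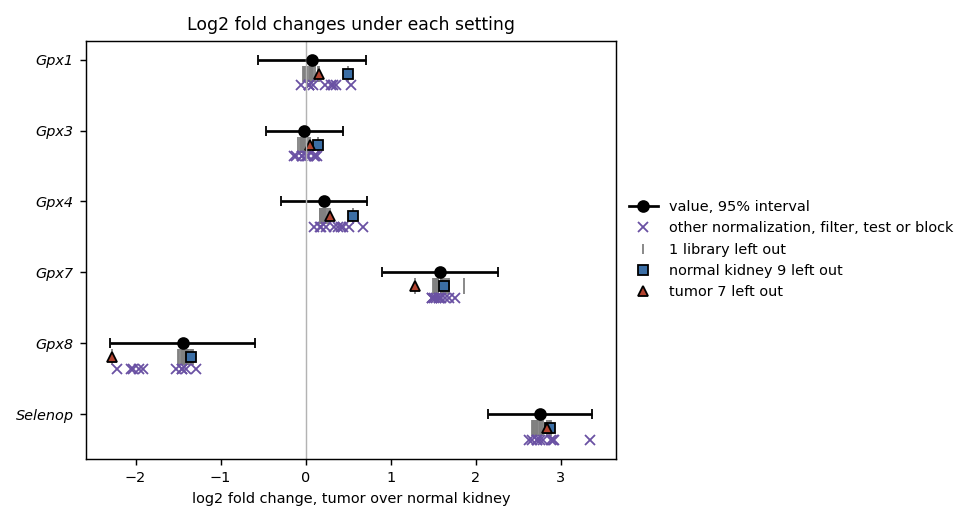
Log2 fold change of tumors over normal kidneys for 6 genes, with a 95% interval (black), under other normalizations, filters, tests and blocks (crosses) and with each library left out in turn (ticks). For Gpx1 and Gpx4 the value without normal kidney 9 (square, 0.50 and 0.56) lies to the right of all other ticks, and for Gpx8 the value without tumor 7 (triangle, -2.28) lies to the left of them.

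Gpx6, a close relative of Gpx3 that is known from the olfactory epithelium and whose mouse form carries cysteine in place of selenocysteine, was detected in all normal kidneys and in no tumor. The normal kidneys had between 178 and 3024 counts. Their lowest, median and highest levels were 6.50, 50.0 and 190 CPM, with normal kidney 7 the lowest and normal kidney 9 the highest. All 10 tumors had 0 counts, where a count of 0 allows up to 3 counts per library, or 0.150 CPM on average over the tumors and 0.171 CPM at most. Against the average floor Gpx6 was at least 373-fold lower in tumors, with a mean of 55.9 ± 50.0 CPM in the normal kidneys (± SD, n = 10 libraries). The floor covers counting error only. Gpx5, which lies next to it on chromosome 13 and encodes an epididymal enzyme, had 1 count in a single normal kidney and none elsewhere.

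The spread of Gpx6 among the normal kidneys was set beside the markers of the proximal tubule. The mean level of 9 proximal tubule markers gave r = 0.72 with Gpx6 across the normal kidneys (permutation p = 0.0132, adjusted 0.04) but rho = 0.36 (permutation p = 0.314, adjusted 0.501), and r fell to 0.17 (permutation p = 0.607) without normal kidneys 5 and 7. In tumors 3 of these 9 markers were lower, 0 were higher and 6 were not called, with sums of 1812 to 14877 CPM over the whole list against 4611 to 19524 CPM in normal kidneys. Slc7a13, the marker of the list that is not among the 9, had at most 4 counts in a tumor and up to 11638 in a normal kidney. It did not pass the filter for low counts over the libraries and was not tested. The lists for the loop of Henle, distal convoluted tubule and collecting duct fell to sums of 60.6, 28.9 and 28.1 CPM or less in every tumor, against at least 3600, 399 and 180 CPM in every normal kidney. The part of tubule segments in the Gpx6 result was not tested.

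Gpx7 and Gpx8 reside in the endoplasmic reticulum, where they pass oxidizing power from peroxide to protein disulfide isomerases, and they moved in opposite directions. Gpx7 lay at 3.13, 7.56 and 21.3 CPM in the tumors and at 1.30, 2.23 and 7.01 CPM in normal kidneys (lowest, median and highest). In 6 tumors it was above every normal kidney, and the highest library of each group was number 7. The means were 8.17 ± 5.29 CPM and 2.72 ± 1.64 CPM (SD, n = 10 each), a 2.99-fold difference (log2 fold change 1.58, SE 0.35, adjusted p = 0.000767 by edgeR's quasi-likelihood test). Without tumor 7 the log2 fold change was 1.29, and without normal kidney 7 it was 1.87, both past the threshold.

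Gpx8 lay at 1.16, 2.81 and 20.7 CPM in the tumors and at 7.73, 11.3 and 17.5 CPM in normal kidneys (lowest, median and highest). In 9 tumors it was below every normal kidney, between 1.16 and 3.84 CPM, and in tumor 7 it was above every normal kidney. The means were 4.19 ± 5.86 CPM and 11.5 ± 2.74 CPM (SD, n = 10 each), 2.72-fold lower in tumors (log2 fold change -1.45, SE 0.43, adjusted p = 0.00927 by edgeR's quasi-likelihood test). Without tumor 7 the log2 fold change was -2.28 (SE 0.23, adjusted p = 5.41e-08 by the same test). At these levels the counts per library are 21 to 484 for Gpx8 and 23 to 500 for Gpx7.

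The fibroblast list moved with Gpx8 in tumors. Of its 7 markers 0 were higher in tumors and 1 was lower, none was at 0 in a whole group, and sums ranged from 135 to 8035 CPM in the tumors and from 247 to 1487 CPM in normal kidneys. Across tumors Gpx8 gave r = 0.94 with the mean level of the list (permutation p = 0.00036, adjusted 0.00468) and rho = 0.84 (permutation p = 0.00358, adjusted 0.0465). Without tumors 7 and 9 r was 0.60 over 8 tumors (permutation p = 0.0947), so the sign stayed while the call was lost. Across normal kidneys r was -0.16 (permutation p = 0.656, adjusted 0.711) and rho -0.07 (permutation p = 0.867, adjusted 0.867), and without normal kidneys 6 and 7 r was -0.78 (permutation p = 0.0217, not adjusted), opposite in sign to the tumors. Gpx7 did not pass the test in either tissue, with r of 0.50 and 0.60 (permutation p = 0.153 and 0.0746, adjusted 0.207 and 0.139) and rho of 0.20 and 0.35 (permutation p = 0.582 and 0.33, adjusted 0.63 and 0.501). The part of fibroblasts in the Gpx8 result was not tested.

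Gpx7 and Gpx8 were also set against each other within each library. The ratio of Gpx7 to Gpx8 per length was also chosen after the levels had been seen and is given without a p-value. It averaged 2.49 in tumors (range 0.683 to 6.35) and 0.197 in normal kidneys (range 0.0954 to 0.443). All 10 tumors, tumor 7 included, were above all normal kidneys, by 3.56 on the log2 scale on average. In normal kidneys Gpx8 exceeded Gpx7 in all 10 libraries, and in tumors Gpx7 exceeded Gpx8 in 8, with tumors 7 and 9 the exceptions. Of the sum over the 8 genes, Gpx7 took up 0.0315% in tumors and 0.0120% in normal kidneys (permutation p = 0.0564), and Gpx8 took up 0.0247% and 0.0556% (permutation p = 0.0745). Leaving out tumor 7 gave p = 0.0002 for Gpx8, and leaving out tumor 2, 5 or 9 or normal kidney 7 gave p of 0.001 to 0.0386 for Gpx7. These permutations do not pair libraries. Exact sign flips within same-numbered libraries, added after seeing the data, gave p = 0.00586 for Gpx7 and p = 0.0273 for Gpx8.

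**Figure D4:**
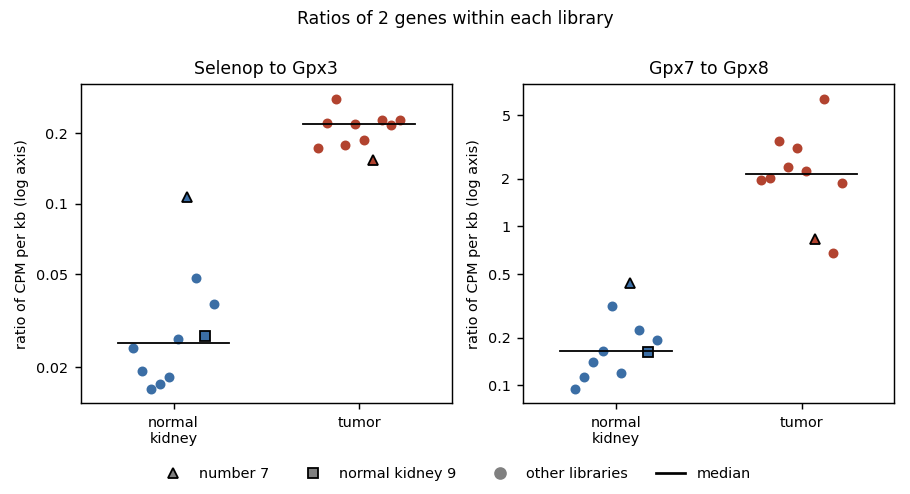
Ratio of 2 genes within each library, from CPM per kb on a log axis, for Selenop to Gpx3 and Gpx7 to Gpx8 in 10 normal kidneys (blue) and 10 tumors (red), with the median as a line. Every tumor lies above every normal kidney in both panels, and number 7 (triangles) lies nearest to the other group for Selenop to Gpx3.

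Gpx2, the peroxidase of gut epithelium and a known NRF2 target, was hardly detected. Of the tumors, 8 had 0 counts, tumor 9 had 6 and tumor 7 had 144, or 6.15 CPM. Normal kidneys had 0 to 0.739 CPM, except for normal kidney 7 at 2.34 CPM, from 64 counts. The number 7 was thus the highest in each tissue, and the gene did not pass the filter for low counts. These counts are too sparse to read a relation to the NRF2 target list in either tissue. The values were r = 0.04 in tumors (permutation p = 0.933, adjusted 0.933) and r = 0.55 in normal kidneys (permutation p = 0.0945, adjusted 0.154), with rho of 0.24 and 0.36 (permutation p = 0.491 and 0.312, adjusted 0.583 and 0.501), and in normal kidneys r was 0.07 without numbers 5 and 7 (permutation p = 0.862). The pseudogene Gpx2-ps1 had at most 2 counts in a library.

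Ordered by level per length, tumors ran Gpx3, Selenop, Gpx1, Gpx4, Gpx7, Gpx8, Gpx2 and Gpx6, and normal kidneys ran Gpx3, Gpx1, Selenop, Gpx4, Gpx6, Gpx8, Gpx7 and Gpx2. Gpx3 led at 18539 ± 4648 CPM per kb in the tumors and 18722 ± 7282 CPM per kb in the normal kidneys (± SD, n = 10 libraries each). Selenop exceeded Gpx1 in all 10 tumors and Gpx1 exceeded Selenop in all 10 normal kidneys, although the ranges of this pair overlap in both tissues. In normal kidneys Selenop and Gpx4 were neighbours that could not be separated, at 575 ± 316 and 398 ± 277 CPM per kb, with Selenop the higher in 6 of 10 libraries. Gpx4 was at rank 69 among 13695 protein-coding genes in both tissues, and Gpx1 at rank 16 in tumors and 14 in normal kidneys.

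The libraries in which members were high or low were often the same. Normal kidney 9 exceeded the mean of the other normal kidneys by 2.43 for Gpx6, 2.23 for Gpx1, 1.93 for Gpx4, 1.20 for Gpx3 and 1.14 for Selenop on the log2 scale, and by 0.72 for Gpx8 and 0.57 for Gpx7. The last pair is close to the median shift of genes of 1 to 3 kb in that library, and the other 5 are larger. Among those genes Gpx3 and Selenop were only at percentiles 73 and 70.7, and Gpx4, Gpx1 and Gpx6 at 94.2, 97.5 and 98.2. An offset that removed the trend on gene length in each library left the calls of Selenop, Gpx1, Gpx3, Gpx4, Gpx7 and Gpx8 as they were. Tumor 7 was 1.02 to 1.48 lower than the mean of the other tumors for Gpx1, Gpx3, Gpx4 and Selenop, and 1.77 and 3.18 higher for Gpx7 and Gpx8. Normal kidney 7 was 2.95 lower for Gpx6 and 1.65 and 1.12 higher for Gpx7 and Selenop.

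The genes most like each member were sought by the correlation of log2 CPM across 20 libraries after the mean of each tissue had been removed. These points share library and depth, and the values are a description. For Gpx1 the nearest were Park7 (r = 0.96), Ndufb3 (0.96) and Acads (0.95), the last pair being genes of mitochondrial metabolism. For Gpx4 they were Gpx4-ps2, Ndufb3 (0.97) and Ube2d-ps (0.96). Without tumor 7 and normal kidney 9, r with Ndufb3 was 0.86 for Gpx1 and 0.88 for Gpx4. For Gpx3 they were Mxi1 (0.95), Cyba (0.94) and Sugct (0.93). For Selenop they were Nr1h4, the bile acid receptor gene (0.89), Aldh3a2 (0.89) and Nat8f5 (0.87), and the value for Nr1h4 stayed at 0.89 without those libraries. For Gpx7 the likeness was lower, with Tuba1a (0.81) and Lat2 (0.80) among the nearest. For Gpx8 they were Ccdc102a (0.96), Pdlim4 (0.94) and Sgce (0.94), which became 0.85, 0.85 and 0.78 without tumor 7 and normal kidney 9. For Gpx6, over the 10 normal kidneys alone, they were Fundc1 (0.98), Methig1 (0.98) and Gnmt (0.98).

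The promoters were searched in RefSeq windows of 300 bases, 250 before to 50 after each start, on GRCm38.p6, of which all 8 members had at least 1 and 13 in all. The antioxidant response element core was searched as TGACNNNGC and as TGANNNNGC, which holds the former, and the hypoxia response element core as ACGTG and GCGTG, on both strands. TGACNNNGC was in no member's window and in 12.4% of all 32851 windows searched, which leave out 1 chromosome that holds no member. TGANNNNGC, found in 41.3% of all windows, was in those of Gpx2 and Gpx6. ACGTG (19.6% of all windows) was in those of Gpx1, Gpx6 and Gpx8, and GCGTG (32.4%) in those of Gpx1 and Gpx4. The windows of Selenop, Gpx3 and Gpx7 held none of these letters.

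The other genes with a selenocysteine codon were set beside the members. The annotation marks 24 genes with such a codon, of which 5 are members and 19 are others, and 17 of the 19 were tested. Of these, 4 were higher in tumors, 4 were lower and 9 were not called, with a median log2 fold change of 0.02, against -0.02 over all genes tested. Selenow, a small redox protein abundant in muscle, was higher by 1.31 and Selenoi, an enzyme of phospholipid synthesis, by 0.95. Txnrd1, the cytosolic thioredoxin reductase and an NRF2 target, was higher by 0.80. Selenom, a protein of the endoplasmic reticulum, was lower by 1.99, Selenos, which takes part in the removal of misfolded proteins, by 0.64, and Txnrd2, the mitochondrial thioredoxin reductase, by 0.36 (adjusted p from 4.6e-06 to 0.0288 by edgeR's quasi-likelihood test). Selenop thus had the largest log2 fold change among the 21 selenoprotein genes tested.

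**Figure D5:**
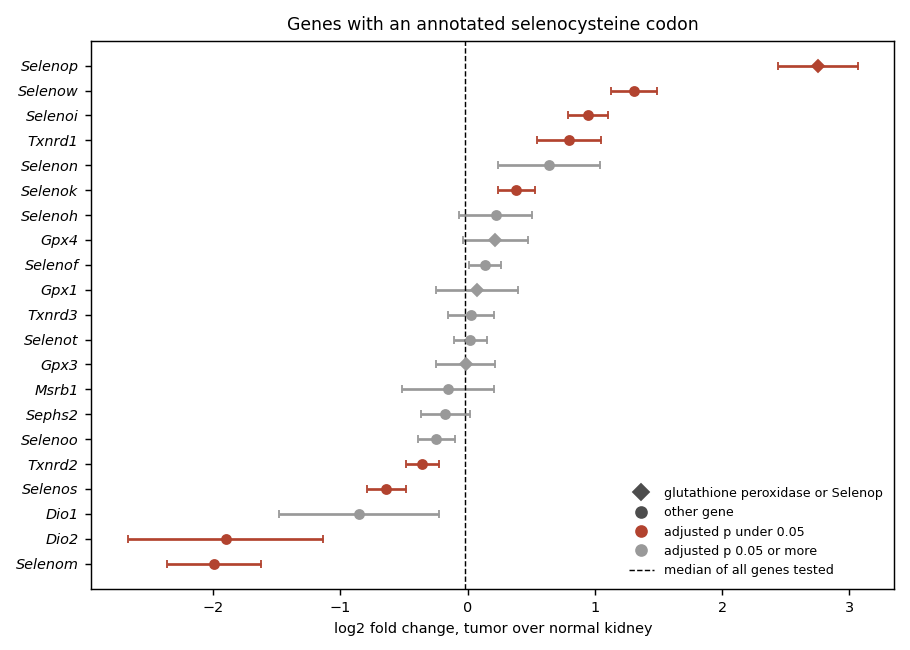
Log2 fold change of tumors over normal kidneys, with its SE, for the 21 tested genes that have an annotated selenocysteine codon. Red marks an adjusted p under 0.05, diamonds mark the peroxidases and Selenop, and the dashed line is the median of all genes tested. Selenop at 2.75 stands at the top and Selenom at -1.99 at the bottom, and most of the rest lie around 0.

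Of 11 genes that supply selenium and insert it into proteins, 3 were higher and 0 lower in tumors (median 0.18). These were Eefsec, the elongation factor for selenocysteine (log2 fold change 0.57), Secisbp2l (0.53) and Lrp8, a receptor for selenoprotein P (1.52), with adjusted p of 0.00107, 0.00782 and 0.0285 by edgeR's quasi-likelihood test. Lrp2, which encodes megalin and was named after its values were seen, was at 2758 CPM in the tumors and 1868 CPM in normal kidneys on average and was not called (log2 fold change 0.56, SE 0.41).

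Genes that make and recycle glutathione, the substrate of these enzymes, gave 2 higher, 1 lower and 10 not called of 13 (median 0.24). Slc7a11, which imports cystine, was higher by 5.02 on the log2 scale and Gss, glutathione synthetase, by 1.12. Ggct, which breaks down gamma-glutamyl peptides, was lower by 2.26. Of 13 other enzymes that act on peroxide and superoxide, 6 were higher, 2 were lower and 5 were not called (median 0.38). Prdx6, Prdx4 and Cat, that is the peroxiredoxins 6 and 4 and catalase, were higher by 1.84, 1.51 and 1.12, and the superoxide dismutase Sod1 was lower by 1.48. The mitochondrial thioredoxin Txn2 was lower by 0.49, and by 0.26 without normal kidney 9, and its call was lost in 8 of 32 alternatives.

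Of 10 genes of oxidative folding in the endoplasmic reticulum, the compartment of Gpx7 and Gpx8, 9 were higher, 0 were lower and 1 was not called (median 0.61). Ero1l, an oxidase and a known hypoxia target, was higher by 3.00, Prdx4 by 1.51, and the protein disulfide isomerases P4hb and Pdia3 by 0.72 and 0.51. Among 11 genes of lipid peroxidation and ferroptosis, the setting of Gpx4, 4 were higher, 2 were lower and 5 were not called (median 0.07). Gch1, the first enzyme of tetrahydrobiopterin synthesis, was higher by 3.43, and Alox12, a lipoxygenase, and Nfe2l2, which encodes NRF2, were lower by 2.93 and 0.79. Alox5, a lipoxygenase of leukocytes, was higher by 2.20, and by 1.11 without tumor 7. Tfrc, the transferrin receptor, was higher by 0.57 (adjusted p = 0.0474 by edgeR's quasi-likelihood test), a call that was lost in 15 of 32 alternatives.

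Of 16 NRF2 target genes 11 were higher, 0 were lower and 5 were not called (median 1.04). Tkt, Me1, Gstm1 and Abcc1 were higher by 1.59, 1.05, 2.22 and 1.03. These lists share members, among them Slc7a11, Prdx4 and Txnrd1.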

How the data were processed

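RNA from 10 tumors and 10 normal kidney regions, flash frozen, pulverized and extracted with Trizol, was made into poly A enriched libraries and sequenced as read pairs by a company. The raw counts per gene were deposited by the authors without normalization, on mm10 per the submitters' processing notes. The aligner, counting tool and use of strand are not given in the sources used here, so copies and overlapping genes carry uncertain counts. Members and lists were chosen with earlier results of these data known.

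Counts of 54532 genes, with 22149 at 0 throughout, were normalized by TMM in edgeR 4.0.16 (R 4.3.3), filtered at a count minimum of 10 and tested by the quasi-likelihood test without covariates. The tests were first tried on simulated counts with known changes. DESeq2 1.42.0 and limma 3.58.1 served as alternatives. Log2 CPM uses a prior count of 2. Permutation tests (numpy 2.4.6, with ranks from scipy 1.17.1) were two-sided, with 100000 resamples and seed 1, and 5000 when a library was left out. Correlations without the 2 libraries farthest from a list's median used all orderings of the remaining 8. Coding windows were read from GENCODE vM21 on GRCm38. All 90 pairs of libraries of a tissue differed by more than sampling noise, with chi-square per degree of freedom of at least 14.5. Named genes were the members, other Gpx genes, up to 4 genes with the lowest adjusted p of each list and up to 2 that changed the other way, the 3 most similar genes of each member and the 4 targeted genes. Values of some genes are not reported here.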

Additional observations from a re-analysis of the deposited data

Results flagged for a closer look

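In each group of 10 libraries the gap between the highest or lowest library and its nearest neighbour was compared with the whole range on the log2 CPM scale, for 15 combinations of gene and tissue, of which 5 were past the limit. Chance alone flags about 1 in 20 where values are independent and normally distributed. That rate does not hold for Gpx2 in tumors, where most values sit at the floor, and the combinations share libraries. Gpx1 and Gpx4 were set apart by normal kidney 9, which was the highest, with gaps of 0.598 and 0.716 of the range. The other 3 were set apart by tumor 7, the highest for Gpx2 and Gpx8, with gaps of 0.701 and 0.594, and the lowest for Selenop, with a gap of 0.505. What set these libraries apart was not tested.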

How the results depend on the processing

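Selenop, Gpx7 and Gpx8 kept their direction and their call in all 32 alternatives, and their adjusted p reached at most 0.0189. Gpx6, at 0 in all tumors, could not change direction and is left out of this count. The calls of Txnrd2 and Secisbp2l were each lost in 1 of 32 alternatives. Values near 0 turned sign. Gpx1 had a log2 fold change of -0.053 with upper quartile factors, 0.53 and past the threshold with limma-voom and quality weights, and -0.026 to 0.50 when each library was left out. Gpx3 was at 0.00058 without a filter, 0.016 with limma-voom, 0.13 with quality weights, 0.11 with the gene length offset and -0.090 to 0.14 when each library was left out. Gpx4 was called with DESeq2 (0.52) and quality weights (0.67), and ranged from 0.17 to 0.56 when each library was left out. Without tumor 7, normal kidney 7 and normal kidney 9, a setting chosen after seeing the data, Gpx1, Gpx3 and Gpx4 were at 0.54, 0.13 and 0.62. Members higher in tumors then numbered 4, as with quality weights. With quality weights calls over all genes rose as well, to 5337 higher and 5407 lower, against 3631 and 3661 in the main fit. Gpx2 could be fitted only without a filter (0.50, adjusted p = 0.751).

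Same-numbered libraries deviated together in 9 pairs (r up to 0.38) but not in pair 9 (-0.14), which holds normal kidney 9, the library that stood apart. Neither labels nor methods name pairs, so the main tests are unpaired and ignore any true pairing by these numbers. With them as a replicate block Gpx3 was at 0.030 (0.094 with the gene length offset added), Gpx8 was at -2.06 and no member's call changed, while 3979 genes were higher and 3886 lower, against 3631 and 3661. Exact sign flips within same-numbered libraries, added after seeing the data, gave p = 0.00586 for the share of Gpx7 (0.019 percentage points, higher in 9 of 10 tumors) and p = 0.0273 for that of Gpx8 (-0.031, lower in 9), both past the threshold unlike without the block. Every tumor but 2 correlated best with its own number.

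Over all genes, calls ranged from 2850 to 5337 higher and from 3590 to 5407 lower. Upper quartile factors and library totals moved the median over all genes tested to -0.14 on the log2 scale and the share of calls that were higher from 49.8% to 39.2% and 38.5%. Shares of CPM without gene length gave a difference of -0.022 percentage points for Gpx4. When each library was left out, the difference in share ranged from -0.41 to 0.46 percentage points for Gpx1, -0.00088 to 0.0013 for Gpx2, 0.0077 to 0.023 for Gpx7 and -0.046 to -0.025 for Gpx8. Without the 2 libraries farthest from a list's median, r turned to 0.32 for Selenop and to 0.43 for Gpx1 with macrophage markers in tumors, and to -0.33 in tumors and -0.31 in normal kidneys for Gpx3 with proximal tubule markers, and Gpx8 with fibroblast markers in normal kidneys went from -0.16 to -0.78. At these depths 1 count was worth under 0.1 CPM, which limits Gpx2 and Gpx6 only. The cause of these shifts was not tested.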
